A study of Mus musculus with 6 samples.

Results

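The genes described here act on fatty acids in muscle: Lpl and Fabp4 in uptake and intracellular transport, Hadh and Acadl in oxidation, Lipe and Dgat1 in the breakdown and synthesis of stored triglyceride, and Pparg as a transcription factor. They were chosen by name, as the probes to which the platform annotation gives these 7 symbols. Each gene had 1 probe, so the set holds 7 of the 223 probes and of the 203 named genes of the array. RNA came from the soleus, a calf muscle rich in slow fibres, of 129/SV mice deficient in tenascin-C (Tnc), an extracellular matrix glycoprotein. The muscle of all animals had borne weight again for 1 day, the state the labels call reloaded. Total RNA from sections of the muscle belly was reverse transcribed with gene-specific primers and a radioactive label and hybridised to 6 arrays, 1 per biological replicate. The labels give 1 group and neither age nor sex, and wild-type or unloaded muscle was not analysed here, so no comparison between conditions was made.

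Slow muscle burns fatty acids that it takes up from the blood or releases from lipid droplets. Lipoprotein lipase (Lpl) at the capillary wall frees fatty acids from circulating triglyceride, and fatty acid binding proteins carry them inside cells. In the mitochondrion they are shortened by beta-oxidation, in which acyl-CoA dehydrogenases such as that encoded by Acadl take the first step and the 3-hydroxyacyl-CoA dehydrogenase encoded by Hadh a later one. Dgat1 catalyses the last step of triglyceride synthesis, and Lipe, hormone-sensitive lipase, takes part in triglyceride breakdown. Pparg is a nuclear receptor that drives fat cell formation and has Fabp4 and Lpl among its known targets.

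Values are relative intensities on a linear scale, read here as multiples of the lowest intensity of the same array, which was taken over the 221 probes other than 1M (unnamed) and 1O (28S ribosomal RNA). A multiple of 1 is the lowest value an array gave, and a multiple of 2 was used as the threshold for signal above background. The arrays differed in range: the lowest intensity was 0.0030 on arrays 1 and 2 and between 0.0006 and 0.0018 on arrays 3 to 6, and 19 and 20 probes reached the threshold on arrays 1 and 2 against 37 to 104 on the others. Probe 1M gave 12194 and 11904 times the lowest intensity on arrays 1 and 2, and 317 to 3385 times it on arrays 3 to 6. Counts are therefore given over arrays 3 to 6, a choice made with these data known, and values for all 6. The Tnc probe itself gave multiples of 4.07, 4.50, 1.11, 2.78, 1.75 and 2.17 on arrays 1 to 6. It lies 3.16 steps from 1M in a grid read from the probe identifiers, an assumed layout. The 6 probes within 4 steps of 1M, Tnc among them, had medians of 4.57, 4.80, 1.22, 3.17, 1.71 and 2.25. A Tnc transcript signal thus could not be told apart from the brightness around 1M. The sources used here also do not say whether this probe covers the deleted sequence, so it does not check the genotype. The tissue label was checked with fibre genes, as to muscle only. All 8 of the 10 listed muscle fibre markers that are on the array (Myh7, Myh1, Myh2, Myh4, Mb, Des, Ttn, Car3) reached the threshold on each of arrays 3 to 6. They include slow and fast myosins and do not tell the soleus from other muscles, so that part of the label was not checked.

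Of the 7 fatty acid genes, 3 passed this threshold on each of arrays 3 to 6: Fabp4, Lpl and Hadh. Over all 221 probes 30 did so, which is 13.6%. Acadl did so on 3 of these arrays, Dgat1 on 2, and Lipe and Pparg on 0. On all 6 arrays the count was 0 of 7, against 5 of 221 probes (2.26%). The members just inside and just outside the threshold were Fabp4, with a multiple of 2.11 on array 3, and Acadl, with 1.78 there. These intensities carry 4 decimals, as do all in the table but 1, and rounding alone allows 2.03 to 2.20 for Fabp4 and 1.70 to 1.86 for Acadl.

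**Figure D1:**
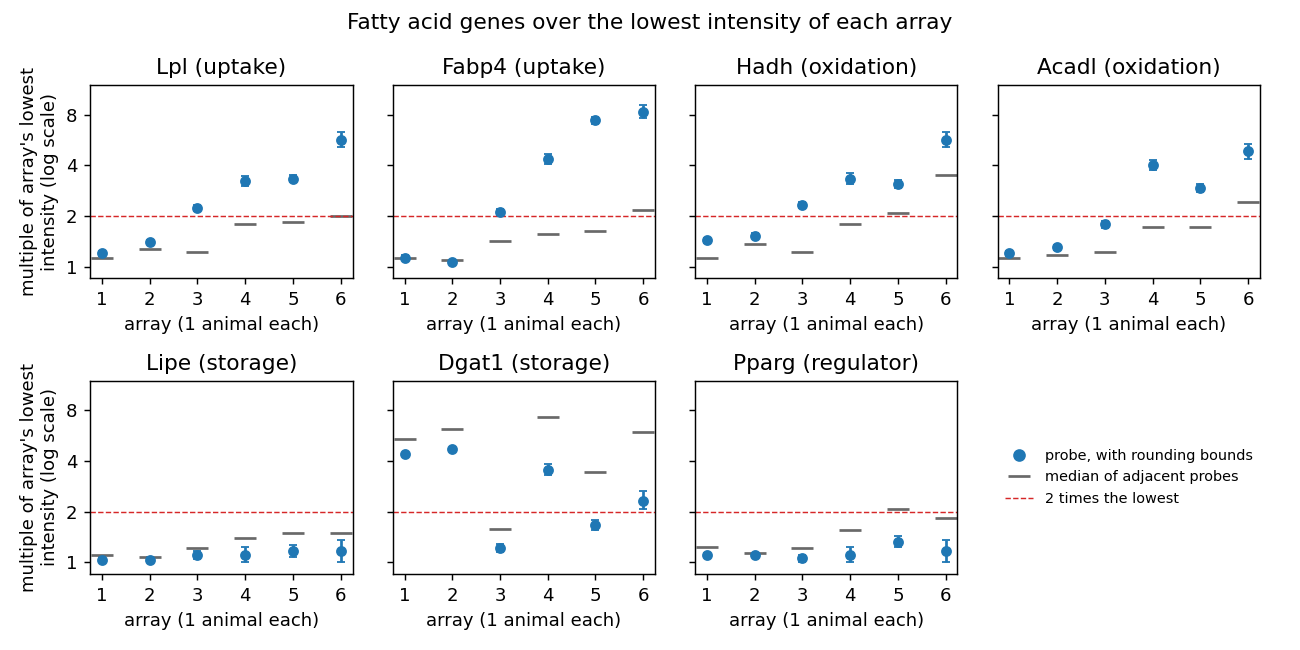
Multiples of the lowest intensity of the array (log scale) for the 7 fatty acid genes on arrays 1 to 6. Each array holds 1 biological replicate, taken as 1 animal in the axis labels. Bars are the bounds that rounding to 4 decimals allows, grey marks the median of the adjacent probes and the dashed line a multiple of 2. Fabp4, Lpl and Hadh lie above the line on arrays 3 to 6, Lipe and Pparg lie near 1 on all arrays, and Dgat1 is highest on arrays 1 and 2, where its neighbours are high too.

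Among the uptake genes, Lpl gave multiples of 1.20, 1.40, 2.22, 3.22, 3.33 and 5.67 on arrays 1 to 6. Its mean over arrays 3 to 6 was 3.61 ± 1.46 (SD, n = 4), and array 6, which had the lowest background, stood highest. As deposited, however, the same probe moved less: its relative intensity was 0.0036, 0.0042, 0.0040, 0.0029, 0.0040 and 0.0034. Most of the deposited value on arrays 1 and 2 is the lowest intensity of the array, 0.0030. Above the lowest intensity Lpl gave 6 and 12 units of the last decimal there, against 20 to 28 on arrays 3 to 6. The spread of its multiples thus follows in part the lowest intensity of the arrays. Its SD on the log2 scale was 0.20 for intensities as deposited and 0.61 after median-centring of the arrays (n = 6). With the lowest intensity subtracted before centring the SD was 0.95. Measured against the median of its 5 adjacent probes, Lpl gave 1.06 and 1.11 on arrays 1 and 2 and 1.82, 1.81, 1.82 and 2.83 on arrays 3 to 6. On arrays 1 and 2 it thus stood little above its surroundings.

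Fabp4 encodes the fatty acid binding protein of adipocytes, which capillary endothelium and macrophages also make. It gave multiples of 1.13, 1.07, 2.11, 4.33, 7.42 and 8.33, with a mean of 5.55 ± 2.86 over arrays 3 to 6 (SD, n = 4). Of the 7 genes it had the widest range, 7.81 times from its lowest to its highest multiple, and on arrays 1 and 2 it did not rise above its 8 adjacent probes (1.01 and 0.97 times their median). Its intensity as deposited was highest on array 5 at 0.0089, against 0.0032 to 0.0050 on the other arrays. With the lowest intensity subtracted and the rest expressed as a percent of the summed net signal of the array (net share), Fabp4 held 0.333%, 0.375%, 1.05% and 0.508% on arrays 3 to 6. Array 5 thus stood highest in intensity and in net share, and array 6 in the multiple.

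The cell types that could carry Fabp4 were read from their markers. Of 11 adipocyte genes listed, 3 are on the array, and besides Fabp4 these are Lipe and Pparg, which stayed between 1.03 and 1.17 and between 1.06 and 1.33 times the lowest intensity on the 6 arrays. The other 8, Adipoq and Plin1 among them, were not analysed here. Of 9 endothelial genes, 6 are on the array, and 0 reached the threshold on each of arrays 3 to 6. It was reached on some by 3 (Cdh5, Pecam1, Kdr) and on none by 3 (Flt1, Tek, Nos3). The counts over all 221 probes were 30, 85 and 106, so the endothelial counts lie near the share over all probes. The summed multiple of the 6 endothelial genes, to which each adds at least 1, was 8.73 and 8.50 on arrays 1 and 2. It was 7.72 and 9.56 on arrays 3 and 4, and 14.5 and 16.0 on arrays 5 and 6. Nos3, Kdr, Flt1 and Tek lie 6.32, 6.40, 7.07 and 8.49 steps from 1M. On array 1 they gave 1.63, 1.73, 1.53 and 1.43. The array 1 median was 1.63 for all probes at 6 to 8 steps and 1.33 at 8 to 12 steps. The part of position in these sums was not tested. Pecam1, an adhesion protein of endothelial junctions, gave 1.5, 1.89, 4.58 and 4.33 times the lowest on arrays 3 to 6, and the junctional cadherin Cdh5 gave 1.44, 1.56, 3.75 and 5.33. Both were thus higher on arrays 5 and 6, the arrays on which the median multiple of all probes was also highest (1.22, 1.44, 1.58 and 1.83 on arrays 3 to 6). The sample titles number arrays 1 to 4 consecutively and arrays 5 and 6 in a later block. What these numbers stand for is not given, and a part of this split in the values was not tested. Among arrays 3 to 6 the net share of 5 of the 6 endothelial genes was highest on array 5, with 0.586% for Pecam1 and 0.450% for Cdh5, while Nos3 had its lowest there (0.0136%, against 0.0231% or more). A highest net share on array 5 was also found for 3 of the 7 fatty acid genes, Fabp4, Lpl and Pparg (0.0545%, against 0.0115% to 0.0167%), and for 93 of all 221 probes (42.1%), so that a peak on array 5 was common. Cd36, a fatty acid translocase made by muscle fibres and endothelium, had its highest net share there as well, with 0.183%, 0.263%, 0.627% and 0.554% on arrays 3 to 6. Il1b, the 1 of 8 macrophage genes on the array, stayed between 1.07 and 1.17 times the lowest intensity. A single cytokine gene near the lowest intensity does not tell whether macrophages were present. In bulk muscle, fewer cells of a type and less RNA per cell cannot be told apart. The part of endothelial cells or of macrophages in the Fabp4 values was not tested.

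**Figure D2:**
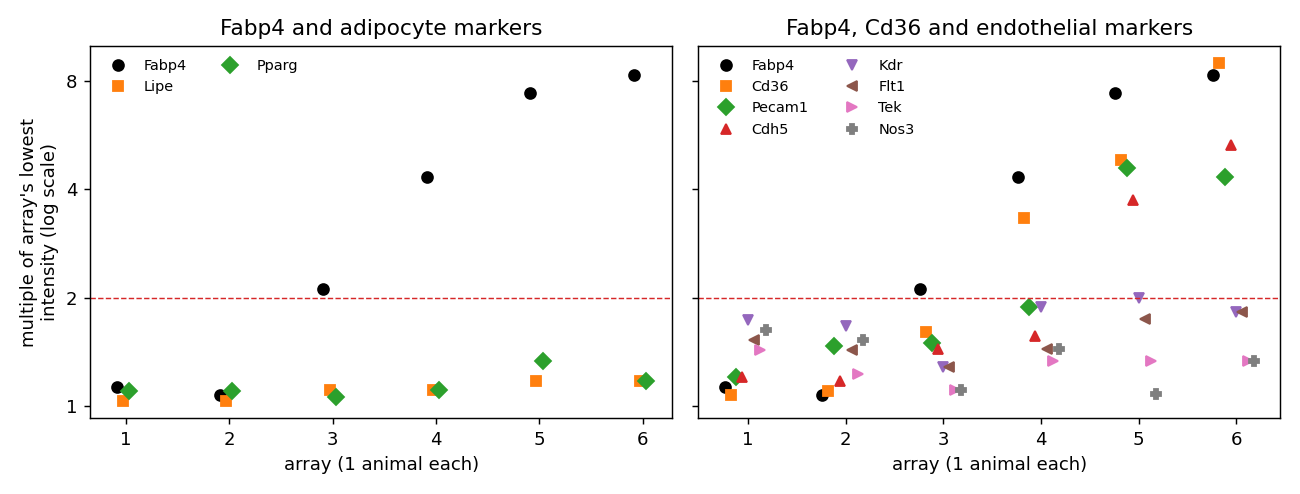
Multiples of the lowest intensity of the array (log scale) on arrays 1 to 6 for Fabp4 with the adipocyte markers Lipe and Pparg (left) and with Cd36 and 6 endothelial markers (right); the dashed line is a multiple of 2. Lipe and Pparg stay at or under 1.33 where Fabp4 reaches 8.33, while Cd36, Pecam1 and Cdh5 are higher on arrays 5 and 6 than on array 3.

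The oxidation pair comprised Hadh and Acadl. Their promoters are shown because these are the beta-oxidation members of the set and the RefSeq promoter table (GRCm38.p6) holds both. It holds 4 of the 7 genes, namely these, Lipe and Pparg; the remaining members are Lpl, Fabp4 and Dgat1. The stretch runs from 250 bases before to 50 bases after the annotated start, 5′ to 3′ on the strand of the gene. Hadh is at chr3:131272052-131272351 and Acadl at chr1:66863260-66863559, both on the minus strand. Capitals mark the GC box GGGCGG on either strand (CCGCCC on the other), of which each promoter has 4.
Hadh: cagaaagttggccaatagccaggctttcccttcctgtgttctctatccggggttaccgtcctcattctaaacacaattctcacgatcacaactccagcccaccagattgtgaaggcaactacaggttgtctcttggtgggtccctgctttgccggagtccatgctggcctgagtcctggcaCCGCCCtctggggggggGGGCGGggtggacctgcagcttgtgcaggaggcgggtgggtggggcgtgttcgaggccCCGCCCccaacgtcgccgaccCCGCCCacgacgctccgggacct
Acadl: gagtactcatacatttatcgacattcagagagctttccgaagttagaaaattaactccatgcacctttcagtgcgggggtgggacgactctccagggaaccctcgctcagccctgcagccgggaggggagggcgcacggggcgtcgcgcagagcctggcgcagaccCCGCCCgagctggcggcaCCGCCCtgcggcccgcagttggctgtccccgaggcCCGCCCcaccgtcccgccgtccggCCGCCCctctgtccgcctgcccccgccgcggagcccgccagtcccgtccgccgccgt
A GC box, in any number, is found in 35.7% of the 32851 promoters of the table. GC content was 63.0% for Hadh and 70.3% for Acadl, against a median of 52.7% over all promoters. The nuclear receptor half-site AGGTCA (or TGACCT), present in 16.3% of all promoters, was found in neither window. The arrays measured transcripts, so these letters describe the genes and bear on no difference below.

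Hadh gave multiples of 1.43, 1.53, 2.33, 3.33, 3.08 and 5.67 on arrays 1 to 6, with a mean of 3.60 ± 1.44 over arrays 3 to 6 (SD, n = 4). It exceeded the median of its 5 adjacent probes on all 6 arrays, by 1.26 and 1.12 times on arrays 1 and 2 and by 1.48 to 1.91 times on arrays 3 to 6. Acadl gave 1.20, 1.30, 1.78, 4.00, 2.92 and 4.83, with a mean of 3.38 ± 1.33 over arrays 3 to 6 (SD, n = 4). It missed the threshold on array 3 and passed it on arrays 4, 5 and 6. Against its 8 adjacent probes Acadl gave 1.07 and 1.10 on arrays 1 and 2 and 1.45 to 2.32 on arrays 3 to 6.

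In net share Hadh held 0.400%, 0.263%, 0.341% and 0.323% of the signal on arrays 3 to 6, and Lpl 0.366%, 0.250%, 0.382% and 0.323%. Both genes had their lowest share on array 4. Acadl ran otherwise, with 0.233%, 0.338%, 0.314% and 0.265%, so that its highest share was on array 4. From the lowest to the highest of these arrays the share differed by 1.52 times for Hadh, 1.53 for Lpl, 1.45 for Acadl and 3.15 for Fabp4. On arrays 1 and 2, where the net signal rests on few units of the last decimal, Hadh held 0.391% and 0.481%, Lpl 0.181% and 0.361%, Acadl 0.181% and 0.270%, and Fabp4 0.120% and 0.0601%. For Hadh, Lpl and Acadl 1 of these 2 values lay within the range of arrays 3 to 6, and for Fabp4 both lay below it.

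**Figure D3:**
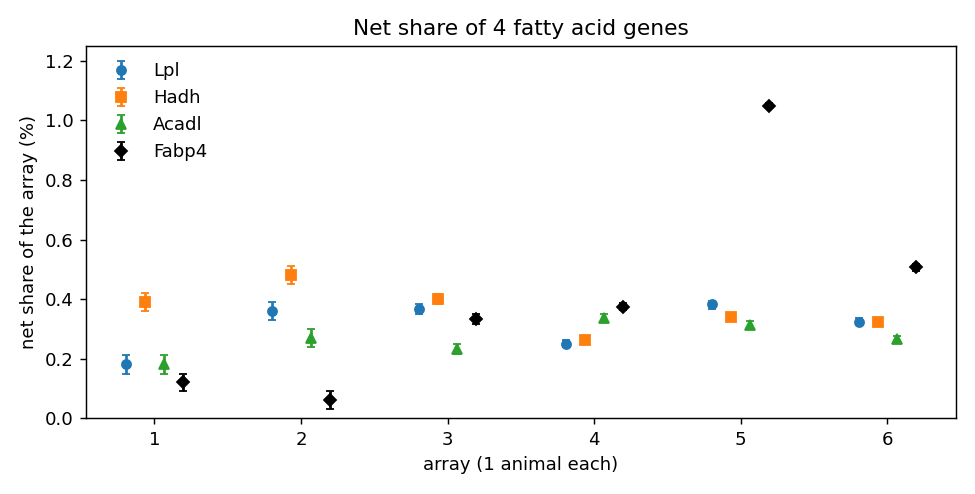
Net share of 4 fatty acid genes on arrays 1 to 6: intensity less the lowest of the array, as a percent of the sum of such values over 221 probes, with bars for the bounds that rounding allows. Lpl, Hadh and Acadl keep between 0.233% and 0.400% on arrays 3 to 6, while Fabp4 reaches 1.05% on array 5.

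The relation between genes was followed through their ratio within an array, which needs no scaling between arrays. The net intensity of Hadh over that of Lpl was 1.09, 1.05, 0.89 and 1.00 on arrays 3 to 6, an SD of 0.13 on the log2 scale (n = 4), but 2.17 and 1.33 on arrays 1 and 2. Among the 406 pairs of the 29 named probes that reached the threshold on each of these arrays the median SD was 0.62, and 3 pairs had a smaller SD than Hadh and Lpl. Fabp4 over Lpl gave 0.91, 1.5, 2.75 and 1.57, an SD of 0.65, close to that median, and 0.67 and 0.17 on arrays 1 and 2. Acadl over Hadh gave 0.58, 1.29, 0.92 and 0.82 (SD 0.47), and 0.46 and 0.56 on arrays 1 and 2. On arrays 3 to 6 the ratio of Hadh to Lpl thus varied least of these, and on arrays 1 and 2 it lay above that range. The probes of Lpl and Hadh sit next to each other in the grid, at 18J and 19J, and the part of a shared local background in their ratio was not tested.

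The probes most like each of the 3 genes were sought among those 29, by the root mean square difference of log2 multiples over 6 arrays after each probe was centred on its mean. Lpl and Hadh were each other's nearest probe, at 0.11. Next to Lpl came Pgk1, a glycolytic enzyme, at 0.21 and Myf6, a muscle transcription factor, at 0.24. Next to Hadh came the same genes at 0.27 and 0.20. The nearest to Fabp4 were Cox8a, a cytochrome c oxidase subunit, at 0.35, Pdha1, a pyruvate dehydrogenase subunit, at 0.37 and Il6st, a cytokine receptor subunit, at 0.47, with Lpl at place 6 of 28 at 0.51. Gapdh, at 1.61 and 1.70, was farthest from Lpl and Hadh. All probes shared the arrays, and the measure favours probes of like signal.

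The storage genes gave no clear signal of their own. Lipe lay at multiples of 1.03, 1.03, 1.11, 1.11, 1.17 and 1.17 on arrays 1 to 6. In the units of the file this is 1 unit of the last decimal above the lowest value on arrays 1, 2, 4 and 6 and 2 units on arrays 3 and 5. It lay below the median of its 8 adjacent probes on all 6 arrays, at 0.78 to 0.97 times it. Lipe transcript was thus not detectable above background with this probe.

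Dgat1 was the 1 member that stood higher on arrays 1 and 2 than elsewhere, with multiples of 4.40, 4.70, 1.22, 3.56, 1.67 and 2.33. Its probe, 4N, lies 3.16 steps from both 1M and 1O in a grid whose rows and columns were read from the identifiers, an assumed layout; the other members lie 12.53 to 21.47 steps from 1M. On array 1 the median multiple was 4.57 for the 6 probes within 4 steps of 1M, 2.20 for the 13 probes at 4 to 6 steps, 1.63 for the 18 at 6 to 8 steps, 1.33 for the 53 at 8 to 12 steps and 1.13 for the 131 beyond. Array 2 gave 4.80, 2.17, 1.45, 1.20 and 1.17. On these arrays all 6 probes within 4 steps lay at 3.10 or more, whatever their gene. Dgat1 lay below each of its 4 adjacent probes there, which gave 4.73 to 20.33 on array 1 and 4.90 to 17.23 on array 2 (Pole2, Ucp3, Top1 and Aldoa). On array 4, where 1M gave 3385 times the lowest intensity, the 6 near probes had a median of 3.17. On array 3, where 1M was dimmest, they had 1.22, which was also the multiple of Dgat1. Against the median of its adjacent probes Dgat1 gave 0.82, 0.75, 0.77, 0.49, 0.49 and 0.39 on arrays 1 to 6, under 1 on each. Aldoa, 1 of the 4 neighbours, reached 54.94 to 239.00 times the lowest on arrays 3 to 6. A transcript signal of Dgat1 could not be told apart from the brightness around 1M.

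**Figure D4:**
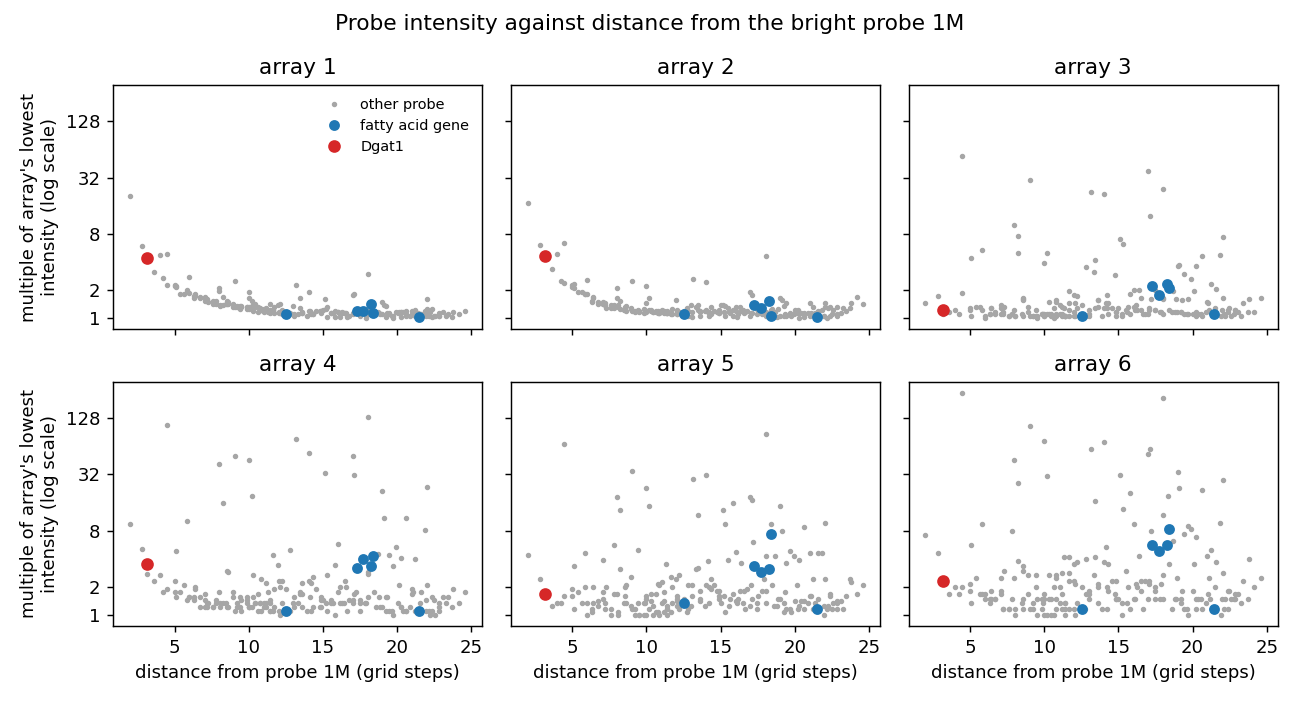
Multiple of the lowest intensity of the array (log scale) against distance from probe 1M in grid steps, for 221 probes on arrays 1 to 6; fatty acid genes are blue and Dgat1 red. On arrays 1 and 2 multiples fall with distance, from medians of 4.57 and 4.80 within 4 steps to 1.13 and 1.17 beyond 12, and Dgat1 lies among the near probes.

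Pparg, the regulator of the set, gave multiples of 1.10, 1.10, 1.06, 1.11, 1.33 and 1.17. It lay 1 unit of the last decimal above the lowest intensity on arrays 3, 4 and 6, 3 units on arrays 1 and 2 and 4 units on array 5. It lay below the median of its 5 adjacent probes on all 6 arrays (0.64 to 0.97 times it), so its transcript was not detectable above background, on the same arrays on which Fabp4 and Lpl were measured.

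The wider lipid metabolism list of 54 genes has 14 on the array, the 7 above and 7 more. Of the 14, 3 reached the threshold on each of arrays 3 to 6, 9 on some and 2 on none, against 30, 85 and 106 of all 221 probes, and the median of the 4-array mean multiples was 2.33 against 1.58. The 3 are the members already named, and the 2 are Lipe and Pparg. Cd36 gave 1.61, 3.33, 4.83 and 9.00 on arrays 3 to 6. Fabp3, the fatty acid binding protein of muscle fibres, gave 1.67, 2.11, 2.42 and 2.83, and the lipoprotein receptor Vldlr 1.94, 2.11, 2.08 and 3.50. These 3 thus missed the threshold on array 3 alone, as Acadl did. For Vldlr rounding allows 1.86 to 2.03 on array 3, 1.95 to 2.29 on array 4 and 1.96 to 2.22 on array 5. For Fabp3 it allows 1.95 to 2.29 on array 4, so these values do not lie clear of the threshold. Acadm, the medium-chain relative of Acadl, and Cpt1b, the muscle enzyme that admits fatty acids to the mitochondrion, passed on array 6 alone among arrays 3 to 6, each with 2.50 there; Cpt1b, 8.0 steps from 1M, also gave 2.10 on array 1. Ppara, a nuclear receptor of fatty acid oxidation, passed on array 5 alone, with 2.08, where rounding allows 1.96 to 2.22. Ucp3, a mitochondrial carrier of muscle, gave 5.93, 6.07, 1.72, 5.11, 2.42 and 4.67 on arrays 1 to 6. Its probe lies 2.83 steps from 1M and 2.0 from 1O, and its order over the arrays was that of Dgat1.

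Spread between replicates was tested with an F test. It sets the variance of each probe's median-centred log2 intensity against that of probes of like signal, as fitted by limma. Of 197 probes measured above the lowest intensity on all 6 arrays, 1 varied more, which is 0.508%, and 0 of the 7 fatty acid genes did. It was Il6, an interleukin (SD 0.60, limma-based F test, adjusted p = 0.0157). An unadjusted p under 0.05 in this F test was found for 15 probes. The Il6 probe lies 5.10 steps from 1M and did not pass without array 3, 5 or 6. The SDs of the members were 1.08 for Fabp4, 0.90 for Dgat1, 0.63 for Acadl, 0.61 for Lpl, 0.52 for Hadh, 0.20 for Pparg and 0.19 for Lipe (n = 6). Their adjusted p in the limma-based F test lay between 0.913 and 0.978. The SD fitted for probes of like signal was 1.00 for Fabp4 and 0.88 for Dgat1, close to their own. With values as deposited, not centred, 4 of 197 probes passed (2.03%), Dgat1 among them (SD 1.44, limma-based F test, adjusted p = 0.0175). The 4, which also include Tnc, Top1 and Fgfr3, lie within 4.00 steps of 1M. Each biological replicate had a single array, so spread among replicates and spread among hybridisations cannot be told apart.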

How the data were processed

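Relative intensities of 223 probes on 6 arrays were taken from the table the authors deposited, with replicates numbered in the order of the sample records. The deposited intensities are linear, and they sum to between 0.995 and 0.999 per array once 1M and 1O are set aside; image analysis, background treatment and scaling are not given in the sources used here. Gene names came from the platform annotation, with 205 named probes, of which 204 matched a GRCm38.p6 gene table by Entrez identifier. Coordinates of probes are not given.

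Each intensity was divided by the lowest of its array (221 probes), by the 5th percentile, or by the median of adjacent probes (within 1.5 grid steps, with the number of the identifier as row and the letter as column). Net shares were added after the data were seen. Rounding bounds shift value and divisor by 0.00005. The variance test took its prior from limma 3.58.1 (squeezeVar, robust, trended prior) in R 4.3.3. An upper-tail F test, not part of limma, set each probe's variance against that prior (Benjamini-Hochberg at 0.05). The largest prior degrees of freedom were used for all probes. In simulated sets of 197 probes it recovered 34% of probes with the SD raised 3 times and 58% of those raised 6 times, and 20 of 88 and 30 of 146 calls were false, so a single call is weak. The only other check was for single values far from the rest of their set, against limits of Dixon's test.

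The members and the gene lists were chosen with earlier results of these data known. Named genes are the members, the listed lipid and cell type genes on the array, 1M and 1O, probes called in the variance test, and for each member passing on arrays 3 to 6 the 3 nearest named probes; Tnc, the neighbours of Dgat1 and Gapdh as the farthest probe were added after their values were seen. The precision is limited by the number of arrays. Nothing beyond the 6 biological replicates says how animals were sampled.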

Additional observations from a re-analysis of the deposited data

Results flagged for a closer look

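The net share of Pparg on array 5 stood apart from those on the other arrays with a wide range. It was 0.0545% there, against 0.0167%, 0.0125% and 0.0115% on arrays 3, 4 and 6, and the gap to the nearest value made up 0.881 of the whole range, above the limit of 0.829 for 4 values. The difference is that between 4 units and 1 unit of the last decimal of the file. In all 21 sets of values of the members were examined in this way and 1 stood out; chance gives about 1 in 20.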

How the results depend on the processing

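The count of 3 fatty acid genes with signal on each of arrays 3 to 6 (30 of all 221 probes) became 4 at 1.5 times the lowest intensity (58 probes) and stayed 3 with the 5th percentile of the array as background (29 probes). It became 0 at 3 times the lowest, where 21 probes passed, 0 when all 6 arrays had to pass (5 probes), and 0 at 2 times the median of adjacent probes (18 probes). Leaving out array 3, 4, 5 or 6 gave 3 to 4, with Acadl added without array 3 (47 probes), and 30 to 35 probes otherwise. Against the median of adjacent probes the mean log2 multiple turned negative for Lipe (-0.22), Dgat1 (-0.75) and Pparg (-0.37); the lowest intensity cannot give a negative value. The count of members in the variance test was 0 in 15 of the 16 settings and 1 with values as deposited. The count over all probes, 1 with centred values, was 4 with values as deposited, and 0 after quantile normalization, with a pseudocount and no filter, with the lowest intensity subtracted, with a prior without trend and on arrays 3 to 6. It ran from 0 to 2 when 1 array was left out, with 0 without array 3, 5 or 6. Removal of the dimmest probes and, added after the data were seen, removal of the probes within 4 steps of 1M gave 1 each, again Il6, while cyclic loess gave 1 other probe, Pole2, and lost Il6. In the limma-based F test the adjusted p of Dgat1 ran from 0.0175 to 0.973. Changes of settings were not traced to a cause beyond this; the cause was not tested. A step of 1 in the last decimal is 3.33% of the lowest intensity on arrays 1 and 2 and 16.7% on array 6, which limits every multiple near 1.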
